A study of Mus musculus with 38 samples.

Results

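De novo Phase 1 RUNX1 sites lacking Med12 are places where RUNX1 was found after Notch stimulation. In the lists used to choose them, neither RUNX1 nor a coactivator had a peak there before it. The Mediator subunit Med12 had none after it either. They were chosen by overlap of peak lists. A site was taken when its Phase 1 RUNX1 peak was not annotated to a promoter and did not share 1 bp with a peak of 4 other lists, namely RUNX1, p300 and Med12 in lymphoid progenitors (LP) and Med12 in Phase 1. Of 38399 Phase 1 RUNX1 peaks, 29155 lay outside promoters, and 2310 of these met the rule. They made up 7.92% of the Phase 1 sites outside promoters and 20.8% of the 11095 sites that had no LP RUNX1 peak (Phase 1-specific sites). The other Phase 1-specific sites were 6530 de novo sites with a Phase 1 Med12 peak and 2255 sites that had already held an LP p300 or LP Med12 peak. The remaining 18060 sites were shared with LP.

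The cells were Cas9-LPs, mouse lymphoid progenitor lines made from fetal liver progenitors that lack the B-lineage factor Ebf1 and carry a Rosa26-Cas9 knock-in, so every group shared the Ebf1 deficiency and Cas9. LP cells were grown on OP9 stroma without DLL4, and Phase 1 and Phase 2 cells on OP9-DLL4, which presents this Notch ligand. RUNX1, CTCF, Med12 and p300 were immunoprecipitated in LP and Phase 1, and Notch1-IC, the released intracellular part of Notch1, in LP, Phase 1 and Phase 2. Guide RNAs were delivered to further samples by retrovirus, as pools of infected cells, giving Med12 lists for Phase 1 cells with sgCont or sgCbfb, RUNX1 lists for Phase 1 cells with sgCont or sgMed12, and RUNX1 lists for LP cells with sgCont or sgCTCF. Each group had 2 replicates, which the deposited list had already combined, so no value here has an error between cultures. The lists used by the rule held from 30020 (LP Med12) to 39132 (Phase 1 Med12) peaks, the Phase 1 p300 list held 49116, and the guide RUNX1 lists held only 874 to 2094. The lists give no number of reads for a sample, and every list used by the rule started at a score of 15. The study gives the guide-treated samples as made from few cells and noisier, and calls its replicates biological without saying how they were cultured. Intervals below cover counting error over sites, which are not replicates of a culture.

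RUNX1 is a Runt domain transcription factor that binds DNA together with its partner Cbfb and is needed from the blood progenitor to the T cell. Med12 belongs to the kinase module of Mediator, the complex that connects bound factors to RNA polymerase II, and p300 acetylates histones and is commonly used to mark active enhancers. Notch signaling through DLL4 starts the T-lineage program in lymphoid progenitors, and its nuclear effector Notch1-IC reaches DNA through RBPJ.

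The sequences under the strongest sites are shown first because they are what RUNX1 was found on. Each window is the 200 bp around the peak centre in GRCm38 (mm10), read on the plus strand, and capitals mark a RUNX string (TGTGGTT or TGCGGTT on either strand). These were the 6 highest-scored sites that held the string, with RUNX1 peak scores of 296.5 at Tubb5, 266.7 at Lyl1, 161.2 at Ppcdc, 159.5 at Zfp958, 135.4 at Supt4a and 113.5 at Cd47.
Tubb5, chr17:35837039-35837238, plus strand: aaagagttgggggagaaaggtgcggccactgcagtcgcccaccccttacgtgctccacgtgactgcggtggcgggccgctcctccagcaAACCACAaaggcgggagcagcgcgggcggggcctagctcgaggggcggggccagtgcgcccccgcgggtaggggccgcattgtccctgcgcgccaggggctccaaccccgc
Lyl1, chr8:84703477-84703676, plus strand: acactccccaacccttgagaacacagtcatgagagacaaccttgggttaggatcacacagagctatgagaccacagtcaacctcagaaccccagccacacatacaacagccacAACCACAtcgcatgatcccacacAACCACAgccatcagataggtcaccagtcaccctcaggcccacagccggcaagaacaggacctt
Ppcdc, chr9:57420767-57420966, plus strand: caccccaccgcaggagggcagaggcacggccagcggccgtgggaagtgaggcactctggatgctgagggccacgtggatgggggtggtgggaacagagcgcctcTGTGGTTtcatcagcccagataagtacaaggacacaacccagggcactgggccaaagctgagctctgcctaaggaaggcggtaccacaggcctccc
Zfp958, chr8:4677307-4677506, plus strand: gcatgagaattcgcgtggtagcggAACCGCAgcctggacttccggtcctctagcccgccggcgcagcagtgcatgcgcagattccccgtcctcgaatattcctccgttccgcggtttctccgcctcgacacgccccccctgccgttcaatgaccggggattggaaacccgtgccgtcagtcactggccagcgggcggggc
Supt4a, chr11:87745057-87745256, plus strand: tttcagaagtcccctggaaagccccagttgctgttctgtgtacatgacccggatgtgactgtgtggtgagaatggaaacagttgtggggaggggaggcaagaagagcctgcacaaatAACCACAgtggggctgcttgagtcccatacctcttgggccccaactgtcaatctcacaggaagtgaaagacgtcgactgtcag
Cd47, chr16:49855960-49856159, plus strand: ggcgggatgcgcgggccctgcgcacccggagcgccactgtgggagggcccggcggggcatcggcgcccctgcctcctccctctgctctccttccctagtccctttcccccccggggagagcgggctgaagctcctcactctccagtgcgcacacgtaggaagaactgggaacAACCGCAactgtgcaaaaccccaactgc

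GC content in these windows ran from 53% at Supt4a to 72.5% at Tubb5, compared with a median of 49% over all the sites. The Lyl1 window held the string at 2 positions, and the other windows held it once. At Tubb5 the string lay at position -7 from the centre, and the string at Cd47 lay 76 bp after its centre.

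The RUNX1 peak score, which the rule used only through the list itself, showed that the sites were mostly weak. Their median score was 18.5 with quartiles of 16.5 and 22.8, and 1406 of 2310 (60.9%) were under 20, close to the lowest deposited score. De novo sites with Med12 had a median of 24.6, sites with an LP coactivator peak 26, and shared sites 50.7. Only 286 of the sites reached a score of 30 and 13 reached 100. Because lists ended at a score of 15, a site without a listed Med12 peak may still have held a weaker signal, and this was not tested. The same holds for the LP RUNX1, p300 and Med12 peaks that the sites lacked. In guide-treated LP cells, a RUNX1 peak overlapped 2 sites with sgCont (0.0866%) and 1 with sgCTCF (0.0433%). At de novo sites with Med12 these counts were 0 and 1 of 6530, and at sites shared with LP the shares were 2.21% and 2.24%. When Phase 1 Med12 peaks were counted only from a score of 30 up, 5930 sites met the rule in place of 2310.

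Most of the sites lay some distance from the peaks of the 4 lists. The median gap to the nearest Phase 1 Med12 peak was 6.4 kb (quartiles 2.67 and 14.9 kb), and 941 sites (40.7%) had one within 5 kb. The median gap was 8.65 kb to an LP RUNX1 peak, 7.55 kb to an LP p300 peak and 9.46 kb to an LP Med12 peak. No peak of these 4 lists lay within 5 kb of 1162 sites. Just inside the rule were 47 sites whose nearest such peak was under 100 bp away, with a median RUNX1 score of 25.5. Just outside it were 46 Phase 1 RUNX1 sites whose largest overlap was 1 to 100 bp, with a median of 27.4.

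The strongest sites lay closer. Of the 10 highest-scored sites, 6 lay under 500 bp from a peak of the 4 lists, compared with 176 of all 2310 (7.62%). Among the 286 sites of score 30 or more the share was 19.6%, and 21.3% lay under 2 kb from a transcription start, compared with 5.93% and 4.64% of the 2024 weaker sites. These shares are a description of the list, since the score and the overlaps defined the sites.

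The highest score, 296.5, belonged to a peak in intron 1 of 3 of Tubb5, a beta-tubulin gene (chr17:35836974-35837302, inside a CpG island and 1.16 kb after the start). It had no p300 peak in Phase 1, but it overlapped a Med12 peak of the sgCont cells. The next, 266.7, lay in intron 3 of 3 of Lyl1, a basic helix-loop-helix factor of blood progenitors (chr8:84703412-84703740), 1836 bp from the nearest Phase 1 Med12 peak. This peak also had no p300 peak, and it recurred in both the sgCont and the sgMed12 RUNX1 lists. The site near Ptma, which encodes prothymosin alpha (173.5, chr1:86525207-86525535), lay in a CpG island 1.19 kb from a start and overlapped CTCF peaks in both stages. The site upstream of Dot1l, a histone H3 methyltransferase gene (163.7, chr10:80752081-80752409), lay in a repeat annotated ZP3AR and had a sgCont Med12 peak. It was 206 bp from an LP Med12 peak and 280 bp from a Phase 1 Med12 peak.

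The 3 highest-scored sites that did have a Phase 1 p300 peak were in intron 3 of 5 of Ppcdc, a coenzyme A synthesis gene (161.2, chr9:57420702-57421030), near Supt4a, a subunit of a transcription elongation factor (135.4, chr11:87744992-87745320), and near Setd1b, a histone H3 methyltransferase gene (129.4, chr5:123138259-123138587). Their p300 peaks had scores of 166.8, 279.9 and 138.0. The Ppcdc site was a borderline member, with an LP RUNX1 peak 173 bp away and an LP Med12 peak 166 bp away, whereas the Supt4a site was over 4 kb from each of the 4 lists (4182 bp at the least). The Setd1b site lay 268 bp from an LP p300 peak. The site near Zfp958 (159.5, chr8:4677242-4677570, in a CpG island) and that near Ccr1, a chemokine receptor gene (115.7, chr9:123928830-123929158), were also among the 10 and had no p300 peak. The Zfp958 site lay 215 bp from an LP Med12 peak and the Ccr1 site 396 bp from an LP RUNX1 peak. In all, 3 of the 10 had a p300 peak.

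p300 was the readout that set the sites apart most clearly. A Phase 1 p300 peak, which the rule did not use, overlapped 960 of the 2310 sites (41.6%, 95% Wilson interval 39.6% to 43.6%) and 5891 of the 6530 de novo sites with Med12 (90.2%). The difference was -48.7 percentage points (95% Newcombe interval -50.8 to -46.5). Over all 29155 sites outside promoters the share was 86.2%, and at sites with an LP coactivator peak it was 88.5%, a difference of -46.9 points (-49.3 to -44.5). Those sites were chosen for an LP p300 or LP Med12 peak, and the sites lacking Med12 for having neither. This second difference is therefore not independent of the choice of sites, and the share over all sites includes that class. Most RUNX1 sites thus carried p300, and those lacking Med12 carried it less often.

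Matched on 5 classes of RUNX1 score, the difference was -46.5 points (-48.7 to -44.2). Within the sites lacking Med12 the p300 share was 41.1% in the lowest score class and 36.1% in the highest, while at de novo sites with Med12 it was 82% in the lowest and 94.3% in the highest.

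**Figure D1:**
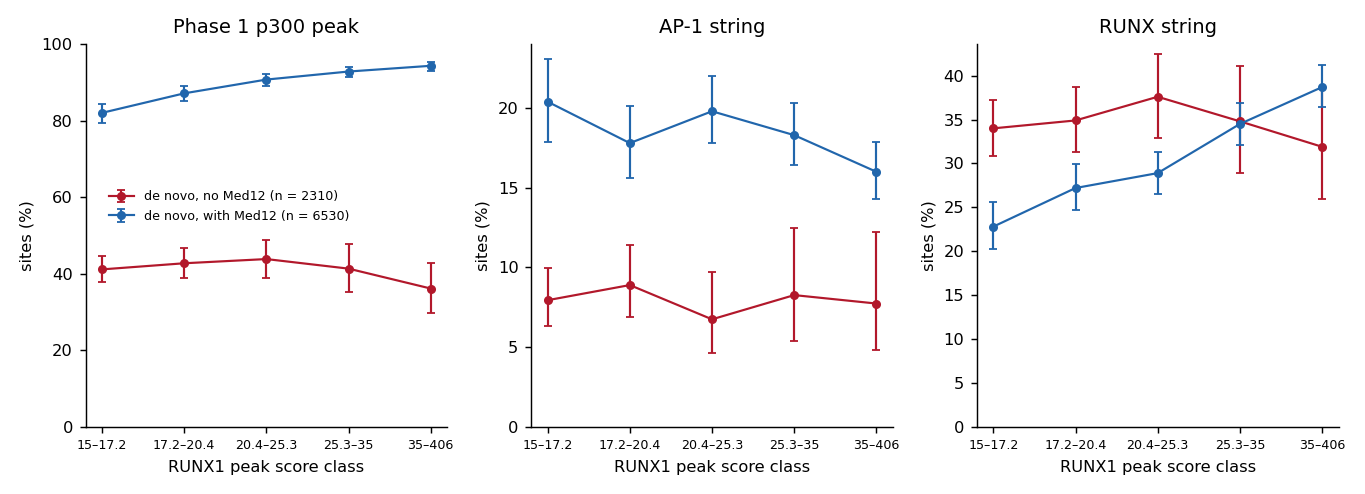
Share of sites (y axis, %) with a Phase 1 p300 peak, an AP-1 string or a RUNX string in 5 classes of RUNX1 peak score (x axis) for the 2310 de novo sites lacking Med12 (red) and the 6530 with Med12 (blue), with 95% Wilson intervals as bars. The p300 and AP-1 shares of the sites lacking Med12 stay below those of the sites with Med12 in every class, whereas the RUNX string shares cross.

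The p300 share varied little with the distance to Med12. It was 39.2% (30.9% to 48.1%) at the 120 sites under 500 bp from a Phase 1 Med12 peak, 40.1% at the 696 sites at 1 to 5 kb and 42.3% (37.7% to 47%) at the 421 sites at 20 kb or more. The p300 peaks at the sites were themselves low in their list. Their median p300 score was 23 (quartiles 18.1 and 31.4), compared with 47.1 (28.9 and 73.3) at de novo sites with Med12 and 45.1 in the whole p300 list.

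**Figure D2:**
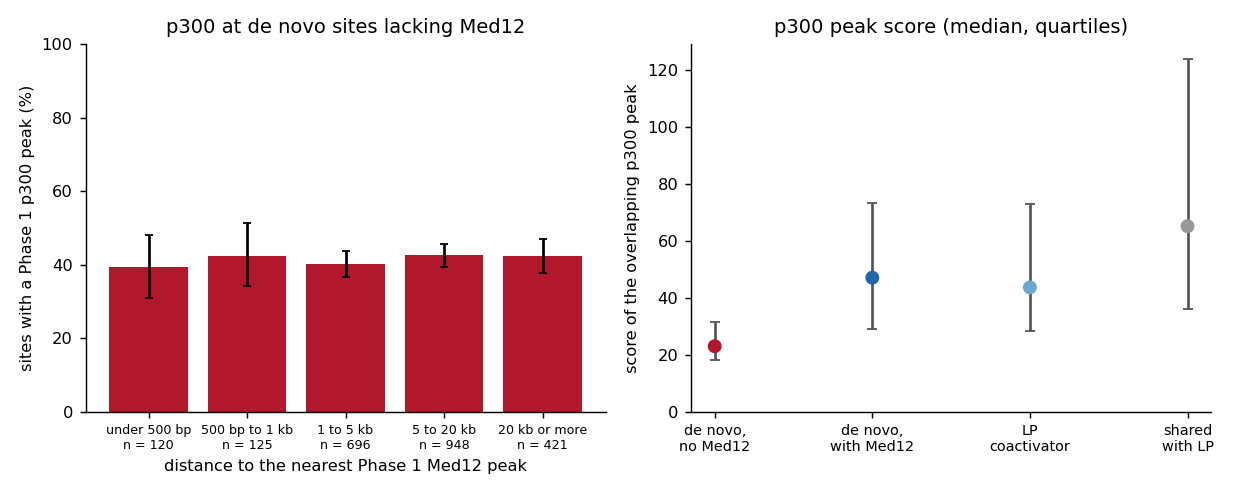
Left, share of the de novo sites lacking Med12 with a Phase 1 p300 peak (%), by distance to the nearest Phase 1 Med12 peak, with 95% Wilson intervals. Right, score of the overlapping Phase 1 p300 peak (median, with quartiles as bars) in the 4 classes of site. The shares lie between 39.2% and 42.5%, and the p300 score is lowest at the sites lacking Med12.

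Med12 itself was measured again in the sgCont cells, which the rule did not use, to see whether the absence of Med12 recurred. A sgCont Med12 peak overlapped 35 sites (1.52%, interval 1.09% to 2.1%), compared with 9.3% of the de novo sites with Med12 and 35.3% of all sites outside promoters. The difference from de novo sites with Med12 was -7.78 points (-8.62 to -6.88), and -3.28 points (-4.09 to -2.47) when matched on score. The sgCont list was shorter than the Phase 1 list (19053 against 39132 peaks), and most de novo sites with Med12 were also absent from it. The 35 sites with such a peak had a median RUNX1 score of 30.2, 11 of them had a p300 peak and 9 lay under 2 kb from a start. By score class the difference lay mainly in the upper classes. The shares at sites lacking and with Med12 were 0.117% and 0.768% in the lowest class, 0.476% and 0.703% in the next, 1.81% and 1.59% in the middle, 3.48% and 5.79% in the fourth and 7.69% and 30.8% in the highest.

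In cells with guides against Cbfb, the partner of RUNX1, a Med12 peak overlapped 36 sites (1.56%, interval 1.13% to 2.15%, compared with 23.1% of all sites). This did not differ detectably from the 1.96% at de novo sites with Med12 (difference -0.402 points, -0.967 to 0.266). Neither Med12 list held 2248 of the 2310 sites. Both lists held 9, and 26 sites were in the sgCont list only and 27 in the sgCbfb list only. Of the 6530 de novo sites with Med12, which were chosen by Med12 in Phase 1 cells without guides, neither list held 5839, both held 44, and 563 were in the sgCont list only and 84 in the sgCbfb list only. Of the 2255 sites with an LP coactivator peak, neither list held 1708 and both held 117. For these, 239 were in the sgCont list only and 191 in the sgCbfb list only. Of the 18060 sites shared with LP, neither list held 7393 and both held 4885. There, 4413 were in the sgCont list only and 1369 in the sgCbfb list only.

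The RUNX1 lists of guide-treated Phase 1 cells were too short to follow most of the sites. The sgCont list held 7 of them (0.303%, against 4.63% of all sites) and the sgMed12 list held 3 (0.13%, against 5.68%). The difference from de novo sites with Med12 was -0.248 points (-0.511 to 0.107) for sgCont and -0.513 points (-0.754 to -0.212) for sgMed12, and the latter was no longer distinguishable from 0 when matched on score (-0.15, interval -0.382 to 0.0821). Lyl1 and Ppcdc were in both lists. The third sgMed12 site, of score 93.4, was in intron 4 of 28 of Itsn1, an endocytic scaffold gene (chr16:91793399-91793727), and held both a RUNX and a PU.1 string. The others found only with sgCont lay near Smu1 (91.4), in Dgkz (78.5), in Gm15417 (66.1), upstream of Spi1 (61.2) and in Dok2 (49.0). These 6 sites in 1 list were named after their values were seen. Among them, the Gm15417 and Dok2 sites overlapped a sgCont Med12 peak. The Dgkz and Dok2 sites lay 72 and 133 bp from a Phase 1 Med12 peak.

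The Phase 1 and Phase 2 Notch1-IC lists were the shortest used, with 152 and 352 peaks, and few RUNX1 sites of any class overlapped them. The study reports more reproducible Notch1-IC peaks for both stages than these lists held. A Phase 1 or Phase 2 Notch1-IC peak overlapped 1 of 2310 (0.0433%, interval 0.00764% to 0.245%), compared with 0.904% of de novo sites with Med12 and 0.954% of all sites. The difference from de novo sites with Med12 was -0.86 points (-1.12 to -0.575), and -0.505 (-0.733 to -0.278) matched on score. The Notch1-IC list of LP cells, grown without DLL4, was longer, with 1585 peaks. It overlapped 1 of the 2310 sites and 0.123% of de novo sites with Med12. At sites shared with LP it overlapped 7.12%, compared with 1.14% for a Phase 1 or Phase 2 Notch1-IC peak.

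CTCF, the insulator protein, overlapped 144 sites in Phase 1 (6.23%, interval 5.32% to 7.29%), compared with 4.58% of de novo sites with Med12 (difference 1.65 points, 0.595 to 2.82) and 12.3% of all sites. It overlapped 118 sites in LP (5.11% against 2.63%, difference 2.47 points, 1.55 to 3.51, with 11.8% over all sites), and 113 of the sites had a CTCF peak in both stages. The CTCF consensus was rare, at 0.606% of the sites, 0.107% of de novo sites with Med12 (difference 0.499 points, 0.229 to 0.912) and 0.765% of all sites. With Med12 peaks counted only from a score of 30 up, the Phase 1 CTCF difference was 0.0937 points (-0.906 to 1.03).

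**Figure D3:**
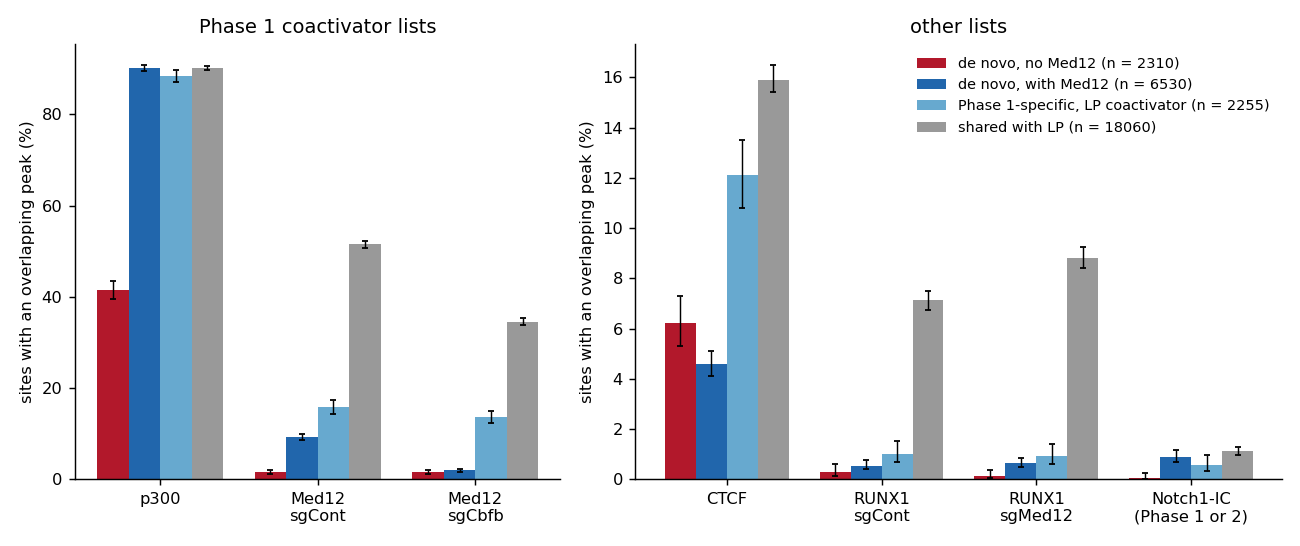
Share of sites (y axis, %) in 4 classes of Phase 1 RUNX1 site outside promoters that overlap a peak of each list (x axis), with 95% Wilson intervals as bars. The de novo sites lacking Med12 (red) have the lowest share for p300 (41.6%) and sgCont Med12 (1.52%), and their CTCF share (6.23%) lies between those of de novo sites with Med12 and sites with an LP coactivator peak.

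Short strings were then searched in the 200 bp around the centres, on both strands, to see which factors' sequences the sites carried. Each string was counted on its own, strings could share bases, and a match is not evidence of binding. The RUNX string was found at 802 of 2309 sites (34.7%, interval 32.8% to 36.7%), far above windows 2 kb to each side (5.78%, difference 29 points, 26.9 to 31) and close to the 31.5% of all sites. The difference from de novo sites with Med12 (31.4%) was 3.32 points (1.09 to 5.58), and 6.2 points (3.85 to 8.55) when matched on score. It turned to -8.29 points (-13.7 to -2.38) among sites of score 30 or more, of which 29.8% of those lacking Med12 held the string. In the lowest score class the shares were 34% and 22.8%, and in the highest 31.9% and 38.7%. Where the string was present it lay a median of 25 bp from the centre, and 128 sites (5.54%) held it more than once, compared with 3.55% of de novo sites with Med12.

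Over all scores, AP-1 showed the largest difference in sequence from de novo sites with Med12. The AP-1 string (TGACTCA or TGAGTCA), bound by the Fos and Jun family, was found at 185 sites (8.01%, interval 6.97% to 9.19%) and at 18.3% of de novo sites with Med12, a difference of -10.3 points (-11.7 to -8.77). It was -10.8 points (-12.4 to -9.25) matched on score and -10.4 points (-11.9 to -8.94) matched on GC content. The share was also below that of sites with an LP coactivator peak (12.9%, difference -4.89 points, -6.67 to -3.12) and of all sites (10.6%), close to that of sites shared with LP (7.88%, interval 7.49% to 8.28%), and above the sites' own flanks (3.81%). With Med12 peaks counted from a score of 30 up, the difference from sites with an LP coactivator peak was -0.508 points (-2.17 to 1.07). The 2 highest-scored sites with the string, in capitals here, lay near Fads1, a fatty acid desaturase gene (score 75.9), and near Nadk, an NAD kinase gene (75.4).
Fads1, chr19:10173543-10173742, plus strand: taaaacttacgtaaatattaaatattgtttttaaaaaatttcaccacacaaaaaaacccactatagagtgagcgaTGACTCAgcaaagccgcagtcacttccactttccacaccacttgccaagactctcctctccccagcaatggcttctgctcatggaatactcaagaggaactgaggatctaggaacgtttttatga
Nadk, chr4:155568246-155568445, plus strand: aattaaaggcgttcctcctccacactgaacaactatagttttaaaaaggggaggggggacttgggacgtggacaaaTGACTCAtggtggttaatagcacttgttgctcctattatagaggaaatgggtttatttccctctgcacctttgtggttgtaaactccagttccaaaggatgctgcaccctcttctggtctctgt

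The GATA string (AGATAA or TGATAA) followed the same direction. It was found at 14.1% of the sites and 23.4% of de novo sites with Med12 (difference -9.27 points, -11 to -7.48), with 15.8% over all sites. Among sites of score 30 or more the GATA difference was -15.3 points (-19.1 to -10.6). The AP-1 difference there was smaller, at -8.99 points (-12 to -5.06). At sites with an LP coactivator peak the GATA string was at 17.7% (difference -3.62 points, -5.74 to -1.5). At the sites lacking Med12 it was rarer than in their own flanks (18.6%, difference -4.46 points, -6.24 to -2.62). Sites shared with LP also held it less often than their flanks (13.1% and 17.8%). The C/EBP string (TTGCNNAA, with N any base) was at 8.71% against 12.6% (difference -3.88 points, -5.25 to -2.44), with 9.6% over all sites, and its share differed from the flanks (7.99%) by 0.715 points (-0.642 to 2.15). It was close to the 8.78% of sites with an LP coactivator peak (difference -0.0754 points, -1.72 to 1.57) and the 8.74% of shared sites. The E box string (CAGCTG), bound by E proteins, was at 13.1% against 15.5% (difference -2.41 points, -4 to -0.732) and against 21.7% at sites with an LP coactivator peak (-8.65 points, -10.8 to -6.46), with 20.2% over all sites. The E box difference from de novo sites with Med12 held 0 without repeats (-1.77 points, -3.65 to 0.223), and at a score of 30 or more (-1.05 points, -5.12 to 3.83). At that score the E box difference from sites with an LP coactivator peak (-4.67 points, -9.32 to 0.611) and the C/EBP difference (-3.84 points, -6.83 to 0.124) also held 0.

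For the GC box, RBPJ, TCF and PU.1 strings the estimated differences from de novo sites with Med12 were smaller than for AP-1 and GATA. The GC box (GGGCGG) was at 8.14% against 5.62% (difference 2.52 points, 1.32 to 3.82), with 10.1% over all sites, but the difference was 0.752 points (-0.336 to 1.78) with Med12 peaks from a score of 30 up. The RBPJ string (GTGGGAA) was at 6.97% against 7.98% (-1.01 points, -2.19 to 0.272), with 5.77% over all sites and 3.83% in the flanks. The TCF string (CTTTGAT) was at 3.72% against 4.32% (-0.595 points, -1.47 to 0.377), with 2.76% over all sites. The PU.1 string (GAGGAAGT), named for the myeloid and progenitor factor encoded by Spi1, was at 7.45% against 6.22% (1.23 points, 0.0569 to 2.5), with 10.4% over all sites and 1.34% in the flanks. The PU.1 difference was not distinguishable from 0 when matched on score (0.332 points, -0.936 to 1.6) or without repeats (0.49 points, -0.705 to 1.83). Of the 29 features compared, 21 differed by their own 95% interval and 15 by an interval widened for 29 comparisons. Those 15 included p300, sgCont Med12, Notch1-IC, CTCF, AP-1, GATA, C/EBP and the GC box, but not the RUNX, PU.1 or E box strings.

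**Figure D4:**
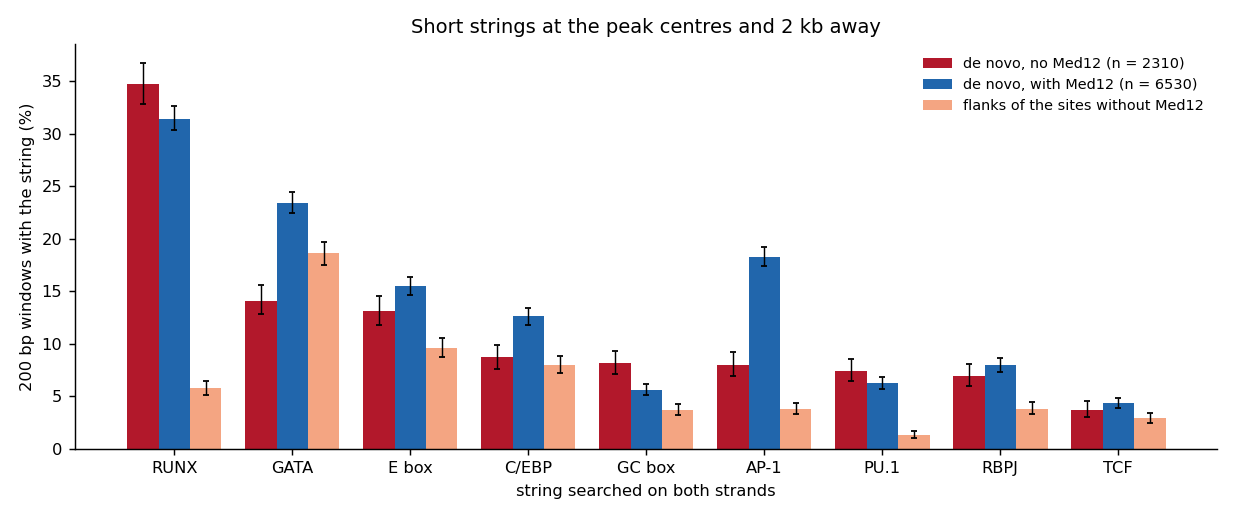
Share of 200 bp windows (y axis, %) that hold each string (x axis) at de novo sites lacking Med12 (red), at de novo sites with Med12 (blue) and 2 kb to each side of the sites lacking Med12 (orange), with 95% Wilson intervals as bars. The AP-1 string (8.01% against 18.3%) and the GATA string (14.1% against 23.4%) differ most, and the RUNX string stands far above the flanks at both kinds of site.

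The sites with p300 differed in sequence from those without it. The median RUNX1 score was 18.7 at the 960 sites with p300 and 18.5 at the 1350 without, and the RUNX string was at 36.2% and 33.7% (difference 2.6 points, -1.34 to 6.55). Sites with p300 held the AP-1 string more often (10.9% against 5.93%, difference 5.01 points, 2.72 to 7.42) and the GATA string more often (17.2% against 11.9%, 5.25 points, 2.34 to 8.25). They held the PU.1 string less often (5.31% against 8.97%, -3.66 points, -5.72 to -1.52). These 3 differences and that of simple repeats were the 4 of 28 that passed the widened interval. The AP-1 share of the sites with p300 (9.12% to 13.1%) was still under the 18.3% of de novo sites with Med12. Among sites of score 30 or more the AP-1 difference was 1.55 points (-4.54 to 8.88), the PU.1 difference -3.59 points (-7.81 to 1.09) and the simple repeat difference -3.37 points (-7.16 to 0.515), with 286 sites left.

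The sites lay mainly in introns (1150) and between genes (997), with 75 at transcript ends and 36 in coding exons. Intergenic sites made up 43.2%, compared with 47.6% of de novo sites with Med12 (difference -4.4 points, -6.75 to -2.04, and -1.5 points, -3.72 to 0.708, with Med12 peaks from a score of 30 up). They made up 46.3% of sites with an LP coactivator peak and 43.7% of sites shared with LP. The median distance to the nearest start was 20.3 kb, compared with 26.3 kb at de novo sites with Med12. It was 21.9 kb at sites with an LP coactivator peak and 19.7 kb at shared sites. Of the sites lacking Med12, 23.6% (21.9% to 25.4%) lay over 50 kb away, compared with 30.5% (29.4% to 31.6%) of de novo sites with Med12. The share was 25.6% at sites with an LP coactivator peak and 23.6% at shared sites. In these 3 measures the sites lacking Med12 were thus close to the shared sites. Another Phase 1 RUNX1 peak lay within 10 kb of 61.3% of the sites and of 53.5% of de novo sites with Med12 (difference 7.87 points, 5.53 to 10.2), with 60.9% over all sites, close to the share of the sites lacking Med12. The difference was -2.61 points (-4.81 to -0.41) when Med12 peaks counted only from a score of 30 up. The sites were spread over the chromosomes, at 7.12% (chromosome 19) to 8.59% (chromosome 16) of all sites outside promoters, with none on Y.

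Repeats were annotated at 622 sites (26.9%), compared with 21.7% of de novo sites with Med12 (difference 5.27 points, 3.23 to 7.36). Among sites of score 30 or more the difference was -2.65 points (-6.93 to 2.41). Simple repeats made up 2.73% against 0.505% (difference 2.22 points, 1.6 to 2.98), with 0.885% over all sites. Of these 63 sites, 24 were in (CCA)n or (TGG)n repeats, which only 4 of the 6530 de novo sites with Med12 were. Only 9 of the 63 sites in simple repeats had a p300 peak (14.3%, interval 7.7% to 25%).

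Retroviral long terminal repeats (LTR) held 260 sites (11.3%), against 9.94% of de novo sites with Med12 (difference 1.32 points, -0.119 to 2.84) and 10.3% of all sites. That difference left out 0 with Med12 peaks from a score of 30 up (2.93 points, 1.62 to 4.19). Of the 260, 184 were in the ERVL-MaLR family (7.97%, interval 6.93% to 9.14%), which held 5.08% (4.58% to 5.64%) of the de novo sites with Med12. The PU.1 string was concentrated there. It was found at 62 of the 260 LTR sites (23.8%) and at 5.69% of the sites outside repeats, a difference of 18.2 points (13.2 to 23.8). This comparison was added after the values were seen. Among the most frequent LTR types, the string was at 11 of 14 ORR1B1, 8 of 12 ORR1B2, 5 of 15 ORR1D2 and 4 of 26 ORR1E sites, and at 0 of 32 MTD sites. Other classes showed it too. The string was at 28.3% of their ERVL-MaLR sites (22.3% to 35.2%), 22% of those with Med12 (17.9% to 26.7%) and 28.3% of those shared with LP (25.5% to 31.2%). A p300 peak was at 57 of the 184 ERVL-MaLR sites (31%, interval 24.7% to 38%) and at 43.3% of the sites outside repeats (41% to 45.7%).

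The 3 highest-scored ERVL-MaLR sites with the string are printed to show it, and were chosen after their values were seen. They lay near Wnt11 (ORR1D2, score 40.9), B230217O12Rik (ORR1D2, 38.9) and I0C0044D17Rik (ORR1B2, 28.4), and capitals mark the PU.1 string on either strand.
Wnt11, chr7:98809440-98809639, plus strand: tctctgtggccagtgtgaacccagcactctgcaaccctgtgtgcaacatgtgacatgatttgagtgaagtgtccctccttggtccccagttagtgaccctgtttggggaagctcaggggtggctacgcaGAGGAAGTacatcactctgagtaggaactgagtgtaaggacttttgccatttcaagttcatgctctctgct
B230217O12Rik, chr19:57341868-57342067, plus strand: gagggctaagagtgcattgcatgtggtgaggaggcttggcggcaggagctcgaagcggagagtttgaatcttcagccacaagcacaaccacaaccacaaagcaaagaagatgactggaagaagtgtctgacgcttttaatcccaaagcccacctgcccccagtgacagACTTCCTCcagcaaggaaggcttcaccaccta
I0C0044D17Rik, chr4:98845253-98845452, plus strand: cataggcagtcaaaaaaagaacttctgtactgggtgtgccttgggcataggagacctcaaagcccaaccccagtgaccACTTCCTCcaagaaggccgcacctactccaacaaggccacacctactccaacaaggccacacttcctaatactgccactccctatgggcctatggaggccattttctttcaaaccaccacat

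**Figure D5:**
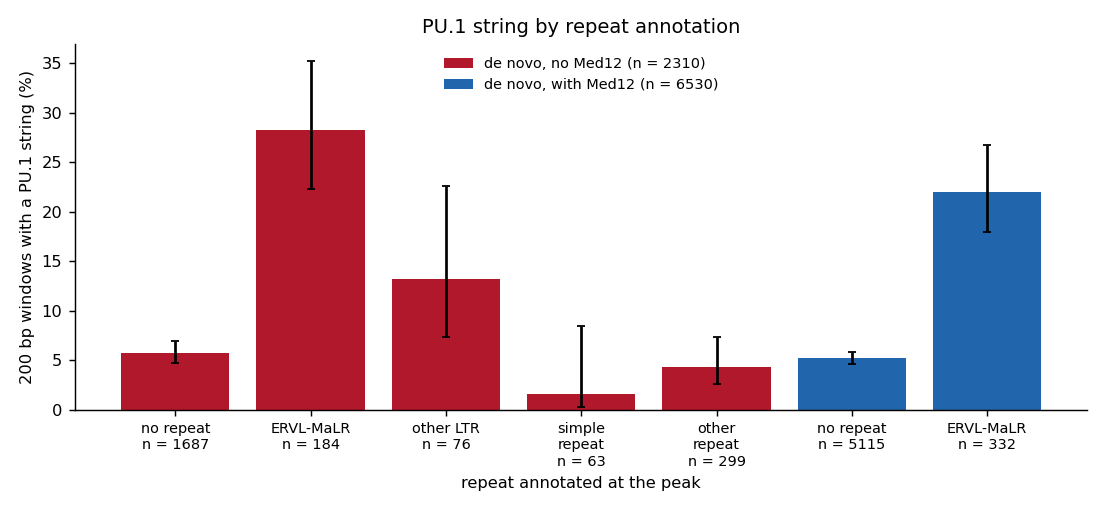
Share of 200 bp windows with a PU.1 string (y axis, %) by the repeat annotated at the peak (x axis), at de novo sites lacking Med12 (red) and with Med12 (blue), with 95% Wilson intervals as bars. The ERVL-MaLR sites stand above the sites outside repeats in both classes (28.3% against 5.69%, and 22% against 5.2%).

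The sites were scattered over many genes. A nearest gene could be named from RefSeq for 2303 of the 2310 sites, giving 1989 genes, of which 1732 were nearest to a single site. De novo sites with Med12 were nearest to 881 of these genes, which is 44.3% of the genes of the sites lacking Med12 and 20.2% of the 4360 genes of the sites with Med12. Among all 10581 genes nearest to a Phase 1 RUNX1 site outside promoters, 41.2% had a de novo site with Med12, close to that share. Slc22a12 (a urate transporter gene), Ly86 and Abr were nearest to the most sites, 5 each, and 8 genes were nearest to 4. All Phase 1 RUNX1 sites outside promoters nearest to these genes numbered 15 at Slc22a12, 27 at Ly86 and 14 at Abr. The 5 sites at Abr had scores of 15.2 to 17.5 and no p300 peak, and 3 of them held the RUNX string. Among the 8 was Rbpj, with sites of score 15.4 to 26 over 74.6 kb, 2 of them with p300 and 3 with the RUNX string. Rbpj had 11 Phase 1 RUNX1 sites outside promoters in all, and by number of sites lacking Med12 it did not stand out among the 8.

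Genes known for roles around the onset of the T-lineage program were read from 6 lists, against a background in which 7.92% of all Phase 1 RUNX1 sites outside promoters lacked Med12 and were de novo. Of 13 Notch target genes, 4 had such a site, and these were 4 of the 57 RUNX1 sites nearest to the list's genes (7.02%), close to the background. Il2ra, which encodes the interleukin-2 receptor chain CD25, had a site in intron 1 of 7 (50.1, chr2:11657626-11657954) with a RUNX string and no p300. Notch1 had one in intron 2 of 33 (26.0, chr2:26494434-26494762) with a p300 peak of score 50.7 and an RBPJ string. The sites in Dtx1 (19.3) and in Tcf7, which encodes TCF-1 (15.9), had no p300. For comparison, de novo sites with Med12 were found at 10 of the 13 genes, of which 12 had any RUNX1 site outside promoters. They made up 26 of the 57 sites. Over all genes with such a RUNX1 site, 41.2% had a de novo site with Med12, and these made up 6530 of 29155 sites. This contrast was not tested.

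Of 36 T cell identity and receptor signaling genes, 7 had 11 such sites, out of 220 RUNX1 sites nearest to the list's genes (5%). RUNX genes themselves stood among them. Runx3 had sites of 44.2 and 20.5, neither with p300, and Runx1 had 3, of which the strongest (34.9, chr16:92748322-92748650, intron 2 of 7) overlapped p300 and held an AP-1 string. Cd4, the coreceptor gene, had a site 1.97 kb after its start (26.8, chr6:124886065-124886393) with a RUNX string and no p300. The strongest site of Cd28, the costimulatory receptor (20.3), and that of Cd6 (16.6) had p300, and that of Tcf12, which encodes an E protein (17.7), did not.

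Of 20 progenitor genes, 6 had 8 such sites, out of 89 (8.99%), and the list held the highest-scored site of the 6. Beside Lyl1 (266.7), they were Spi1, which encodes PU.1 (61.2, chr2:91087518-91087846, at -9 kb from the start), Nfe2, a factor of the erythroid and megakaryocyte lineages (52.4), the ETS gene Erg (34.4), Kit, the receptor for stem cell factor (20.1), and the homeobox gene Meis1 (16.7). None of these 6 strongest sites overlapped a p300 peak, and a RUNX string was found only at Lyl1. The weaker of the 2 Erg sites (16.0) did have p300. Of 15 myeloid genes, 2 had a site each, Klf4 (20.1, with p300) and Csf1r (15.4, without), out of 53 (3.77%). Of 14 B lineage genes, 3 had a site each, Bach2 (51.0, with an AP-1 string and no p300), Irf4 (17.6, without p300) and Bank1 (16.4, with p300), out of 50 (6%). Of 13 innate lymphoid genes, Gzmb alone had a site (16.7, with p300), out of 35 (2.86%). With 1 to 11 sites a list, these shares are given as counts and were not set against each other.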

How the data were processed

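Chromatin immunoprecipitation followed by sequencing was done by the authors in 38 samples of 19 groups. Per the study, reads were aligned to mm10 with Bowtie 1.1.1, and peaks were called with HOMER and kept where both replicates of a group were reproducible by the irreproducible discovery rate. Each of 17 deposited lists gives a position, an annotation and a peak score assigned by the authors, which the study calls a normalized HOMER score and of which it kept values from 15 up. Scores were used only within 1 list. The 4 input samples had no list of their own in the files used here. The lists hold no read counts, so the depth of each sample was not analysed here, although the study's methods give an approximate read number per sample.

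The members and gene lists were chosen with earlier results of these data known. Peaks sharing at least 1 bp were called overlapping. Sites were classed in the order shared, LP coactivator, Med12. Shares have 95% Wilson intervals, differences of 2 shares 95% Newcombe intervals, and score-matched differences are Mantel-Haenszel risk differences over 5 classes with Sato's variance. A difference was called where its interval left out 0. The widened interval used the Bonferroni level for 29 features. Strings were searched in GRCm38.p6 (RefSeq), and 1 site on an unplaced sequence was left out of them. Named sites were the 10 highest-scored, the 3 highest with and without p300, those with Notch1-IC, those in both Phase 1 guide RUNX1 lists, the highest-scored site of each listed gene, and the genes nearest to the most sites. Some sites that this rule names are not reported here. Nearest genes were those of the lists' RefSeq transcripts. Python 3.11.15, numpy 2.4.6, pandas 2.3.3, scipy 1.17.1 and pysam 0.24.0 were used, and the functions were tested on simulated data.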

Additional observations from a re-analysis of the deposited data

How the results depend on the processing

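No paired analysis was possible because each list had combined both replicates, and for the same reason no replicate could be left out. The number of sites was 286 at a minimum RUNX1 score of 30 and 5930 with Phase 1 Med12 peaks from a score of 30 up, and ran from 1687 to 2611 under the other settings. The differences from de novo sites with Med12 in p300 (-56.5 to -28.2 points), sgCont Med12 (-18.3 to -3.28), Notch1-IC (-2.15 to -0.505), AP-1 (-10.9 to -6.39) and GATA (-15.3 to -7.31) kept their direction and left out 0 under every setting tried.

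At a minimum score of 30 the RUNX string difference turned to -8.29 points (-13.7 to -2.38). The PU.1 string difference became -2.2 (-4.01 to 0.667) and the repeat difference -2.65 (-6.93 to 2.41), both with intervals that held 0. The RUNX string difference from sites with an LP coactivator peak was 8.61 points (5.95 to 11.3) over all scores. At a minimum score of 30 it was -1.47 (-7.39 to 4.82), which held 0. The sgMed12 RUNX1 difference became -0.874 with an interval that held 0, and the features that differed numbered 11 against sites with an LP coactivator peak in place of 21, and 3 between sites with and without p300 in place of 8. There were then 286 sites left. Matched on score, the sgMed12 RUNX1 difference was -0.15 and the PU.1 difference 0.332. The PU.1 difference was 0.759 with centres within 100 bp and 0.49 without repeats, both with intervals that held 0. With Med12 from a score of 30 up, the CTCF difference was 0.0937 and held 0, the neighbouring RUNX1 peak difference turned to -2.61, and the sgCbfb Med12 (-0.769) and sgCont RUNX1 (-1.07) differences left out 0. The sgCont RUNX1 difference also did so without peaks under 2 kb from a start (-0.357). The cause of these changes was not tested. Matching on GC classes was added after the values were seen.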
